A study of Sus scrofa with 6 samples.

Results

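The genes described here are the enzymes that make and use arginine, citrulline and ornithine, together with those of the urea cycle. Members were taken by symbol, and 9 of the 10 names of the set were found among the 20648 genes of the count matrices: NAGS, CPS1, OTC, ALDH18A1, OAT, ASS1, ASL, ARG1 and ARG2. The tenth, PRODH (proline dehydrogenase), was not analysed here. Single cells of the ileal mucosa of male Large White piglets that received maternal milk were measured with the 10x Chromium 3′ system. There was 1 library at each of 6 ages, days 0, 1, 3, 7, 14 and 21, and how many animals entered a library is not in the sample labels. The labels call the tissue ileum, whereas the design text of the series names the cecum. With 1 library per age no test between ages was possible, so an age and its library cannot be told apart, and the intervals given below cover counting error only.

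In the newborn pig the small intestine is a main site of arginine synthesis, because milk supplies less arginine than growth requires. In the enterocyte, glutamine and proline are turned into ornithine, carbamoyl phosphate is joined to ornithine to give citrulline, and citrulline is turned into arginine, either in the same cell or, after export, in the kidney. Arginases split arginine into urea and ornithine, and in the pig intestine arginase activity is known to be low before weaning.

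Barcodes with at least 1000 unique molecular identifiers (UMIs, each standing for 1 captured transcript) and at least 500 genes were taken as cells, which gave 76099 cells, between 10836 and 15956 per library. Cells were assigned to a lineage by UMIs of marker genes: epithelial (EPCAM, KRT8 and VIL1, at least 5 together), myeloid (LYZ, CST3 and AIF1, at least 10), B (MS4A1, PAX5 and POU2AF1, at least 2) and T (CD3E and CD3G, at least 2). Epithelial cells numbered 3832 in all, with 2601, 920, 87, 196, 27 and 1 from the youngest to the oldest library. B cells numbered 51498 and went from 2187 on day 0 to 13021 on day 21, so the later libraries were libraries of B cells. The longer list of 7 epithelial genes summed to between 32.2 and 83.2 UMIs per 10000 in epithelial cells of days 0 to 14 and to between 0.0141 and 1.13 in B cells. EPCAM, KRT8 and VIL1 are in this list, so the rule itself set part of the difference. The sum is therefore no separate check of the lineage. The 1443 cells that met more than 1 rule were left out of the lineages, 672 barcodes were shared by libraries, and 212 cells lay exactly at the epithelial threshold, with 299 at 1 UMI under it.

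Levels are given as a gene's UMIs per 10000 of all UMIs in a group of cells. The same level in barcodes with 100 UMIs or fewer is set beside them as a measure of RNA outside cells, and the part of such RNA in any level was not tested. UMIs were counted at the 3′ end and not scaled by transcript length, so levels were compared between groups for 1 gene and not between genes. A member was called higher or lower where the ratio of 2 groups was at least 2-fold, with at least 20 UMIs in both groups together.

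NAGS, CPS1, OTC, ALDH18A1, OAT, ASS1 and ASL had more of their UMIs in epithelial cells than in any other lineage, ARG1 was carried by myeloid cells, and ARG2 was spread over lineages. Over days 0, 1, 3 and 7, weighted equally, 8 of 9 members were at least 2-fold higher in epithelial than in B cells, against 35.5% of the 15147 genes compared, and 1, ARG1, was lower, against 17.6%. The folds were 81.4 for ASS1, 76.8 for OTC, 61.5 for CPS1, 31.9 for ASL, 16.5 for OAT, 9.79 for ALDH18A1 and 2.25 for ARG2. They are ratios of levels averaged over the days, and single libraries differed. ASS1 was 1.25 in epithelial and 0.044 in B cells on day 0, but 8.39 and 0.03 on day 7. For NAGS the fold of 14.2 rested on 54 and 6 UMIs. For ARG2 the epithelial and B levels were 0.0496 and 0.0262 on day 0, and 0.0974 and 0.0683 on day 1. Both differences are under 2-fold, so the ARG2 call came from days 3 and 7, with 5 and 7 epithelial UMIs. The median difference was 4.05 on the log2 scale over the members and 0.33 over all genes compared. Epithelial cells held 12.3% of all UMIs in cells, but 72.7% of those of OTC, 72.1% of those of ASS1, 71.4% of those of CPS1 and 65.6% of those of ASL. For ARG1 the epithelial share was 0.151%, and myeloid cells held 75.1%. ALDH18A1 and ARG2 were the most spread, with 50.1% and 24.7% of their UMIs in epithelial cells and 21.1% and 21.9% in B cells.

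**Figure D1:**
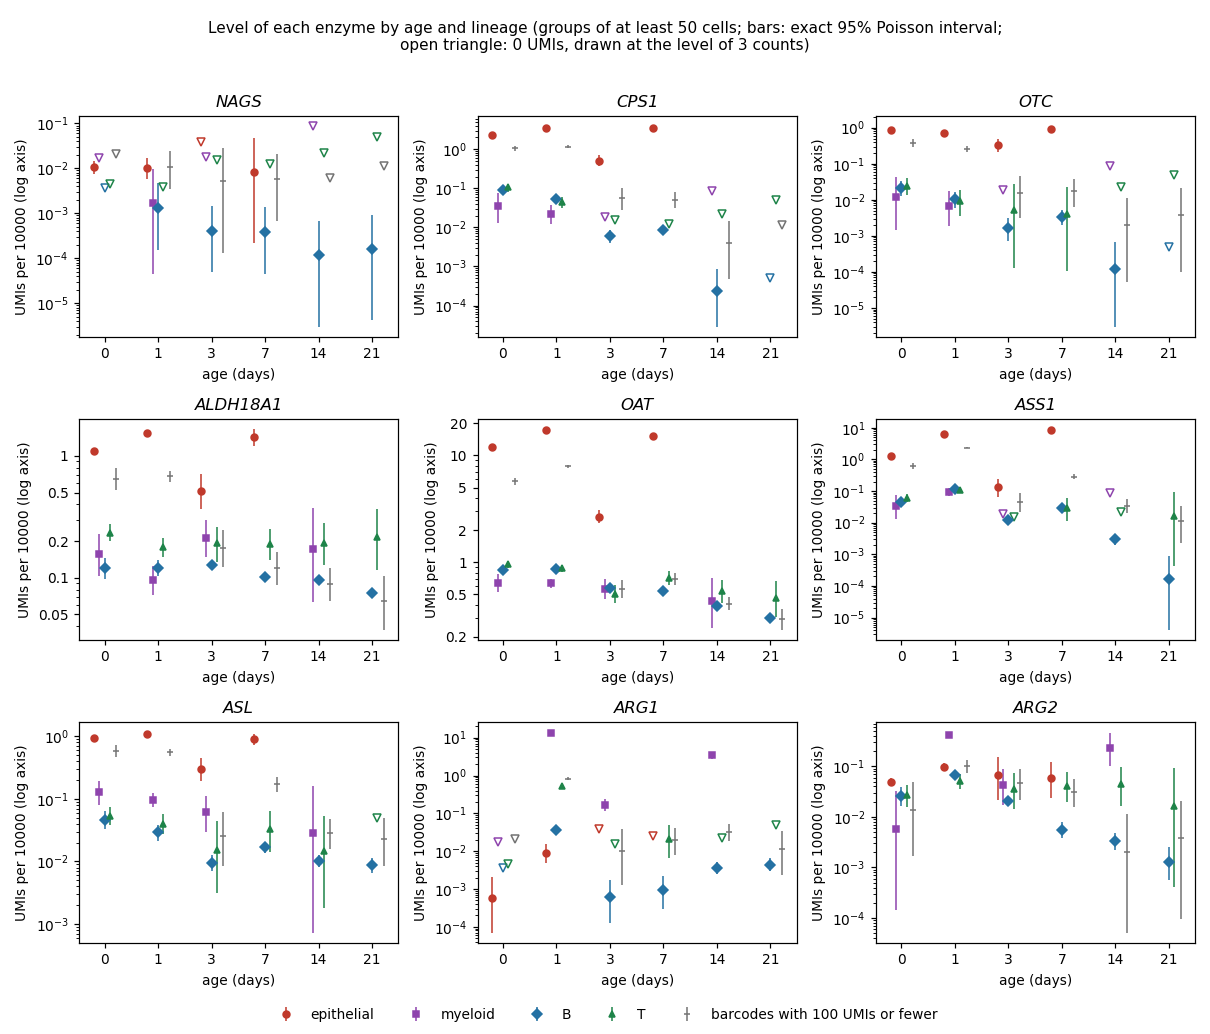
Level of the 9 enzymes (UMIs per 10000 in the group, log axis) against age in days, for epithelial, myeloid, B and T cells in groups of at least 50 cells, and for barcodes with 100 UMIs or fewer; bars are exact 95% Poisson intervals and open triangles mark groups with 0 UMIs, drawn at the level of 3 counts. Epithelial cells lie above the other lineages for CPS1, OTC, ALDH18A1, OAT, ASS1 and ASL at each age drawn, and myeloid cells lie highest for ARG1 on days 1, 3 and 14.

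The first steps of citrulline synthesis lie in the mitochondrion. NAGS (chromosome 12:19170398-19173968, Sscrofa11.1) makes N-acetylglutamate, the activator that CPS1 needs. It was near the limit of detection, with 100 UMIs in all cells, of which 54 were in epithelial cells. By library these were 37, 16, 0, 1 and 0 UMIs (days 0, 1, 3, 7 and 14). The epithelial level was 0.0107 (95% interval 0.00751 to 0.0147) on day 0 and 0.0103 (0.00586 to 0.0167) on day 1, so the intervals of these ages overlapped, and the later ages had too few UMIs for a comparison.

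CPS1 (15:113210038-113339086) makes carbamoyl phosphate from ammonia and bicarbonate. In epithelial cells of days 0, 1, 3 and 7 its level was 2.30 (2.25 to 2.35), 3.52 (3.43 to 3.62), 0.514 (0.366 to 0.703) and 3.50 (3.17 to 3.86), and in the 27 cells of day 14 it was 1.47 (0.96 to 2.15). Pooled over cells, days 1 and 7 were alike and day 3 stood lowest, but with cells thinned to 1000 UMIs day 7 had 1.79, beside 1.61 on day 0. On day 0 a CPS1 UMI was found in 52.5% of epithelial cells and in 3.16% of B cells, at median depths of 9343 and 3382 UMIs, and in 13.9% and 0.823% once each cell was thinned to 1000 UMIs. No CPS1 UMI was found in the 13021 B cells of day 21. CPS1 outside cells was 1.05, 1.17, 0.0571, 0.0514, 0.00406 and 0 from day 0 to day 21, beside 0.0905, 0.0548, 0.00604, 0.00863, 0.000237 and 0 in B cells. Both were far lower from day 3 on, whereas from day 0 to day 1 the level in B cells was lower and that outside cells was not.

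OTC (X:34322398-34391711) joins carbamoyl phosphate and ornithine to citrulline. The gene overlaps RPGR in the annotation, and how reads in the overlap were assigned is not given in the sources used here. In epithelial cells OTC stood at 0.89 (0.859 to 0.922), 0.697 (0.657 to 0.74), 0.33 (0.213 to 0.487) and 0.903 (0.74 to 1.09) on days 0, 1, 3 and 7. No OTC UMI was found in the 27 epithelial cells of day 14, which allows up to 0.170, the level of 3 counts over the group. When cells were thinned to 1000 UMIs, the values of days 0 and 7 were 0.604 and 0.408. OTC differed in its course from CPS1, with a lower value on day 1 than on day 0. Of the epithelial UMIs of OTC and CPS1 together, OTC made up 27.9% (27.0 to 28.7), 16.5% (15.6 to 17.4), 39.1% (27.1 to 52.1) and 20.5% (17.1 to 24.2) in the libraries of days 0, 1, 3 and 7 (95% Clopper-Pearson intervals). On day 14 it was 0 of 26 UMIs.

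Ornithine reaches OTC by way of ALDH18A1 and OAT. ALDH18A1 (14:107174062-107221373), the pyrroline-5-carboxylate synthase, opens the path from glutamate. Epithelial ALDH18A1 was 1.10 (1.07 to 1.14), 1.55 (1.49 to 1.61), 0.514 (0.366 to 0.703), 1.42 (1.21 to 1.65) and 1.30 (0.824 to 1.95) on days 0, 1, 3, 7 and 14. Apart from day 3, these values lay within a narrow range. OAT (14:133808193-133830517), ornithine aminotransferase, interconverts ornithine and pyrroline-5-carboxylate. It stood at 11.95 (11.8 to 12.1), 17.4 (17.1 to 17.6), 2.66 (2.31 to 3.06), 15.0 (14.4 to 15.8) and 3.51 (2.69 to 4.49) on days 0, 1, 3, 7 and 14. OAT was thus high on days 0, 1 and 7 and low on days 3 and 14. The OAT level outside cells was 5.73 on day 0, 7.92 on day 1 and between 0.295 and 0.694 from day 3 on.

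ASS1 (1:270531434-270586364) condenses citrulline with aspartate to argininosuccinate. It was the member past 2-fold in epithelial cells of days 1 and 7 against day 0. On days 0, 1, 3 and 7 its level was 1.25 (1.22 to 1.29), 6.41 (6.29 to 6.54), 0.132 (0.0632 to 0.243) and 8.39 (7.88 to 8.93), and in the 27 cells of day 14 it was 19.2 (17.2 to 21.4). Against day 0 the ratio was 5.11 (4.93 to 5.30) on day 1 and 6.69 (6.24 to 7.17) on day 7. ASL (3:16637481-16646869) splits argininosuccinate into arginine and fumarate, and overlaps a long noncoding RNA gene in the annotation. Its level was 0.945 (0.913 to 0.978), 1.10 (1.05 to 1.15), 0.303 (0.192 to 0.455), 0.895 (0.732 to 1.08) and 1.07 (0.647 to 1.68) on days 0, 1, 3, 7 and 14. The values of ASL and ASS1 went up and down at the same steps, but those of ASL differed far less between ages. The ASL part of the UMIs of ASL and ASS1 together was 43.0% (41.9 to 44.1), 14.6% (14.0 to 15.3), 69.7% (51.3 to 84.4), 9.64% (7.96 to 11.5) and 5.29% (3.22 to 8.14) on days 0, 1, 3, 7 and 14, with 33 UMIs of both genes on day 3.

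Counted over the set, 1 of 8 members with enough UMIs was higher in epithelial cells of day 1 than of day 0, against 6.69% of 13588 genes, and 0 were lower, against 6.37%. In epithelial cells of day 7 against day 0, 1 of 8 was higher, against 18.1% of 13141 genes, and 0 were lower, against 15%. The member was ASS1 in both counts, which share the library of day 0. The ratios of the other urea-cycle members on day 7 were 1.52 (1.38 to 1.68) for CPS1, 1.01 (0.829 to 1.23) for OTC and 0.946 (0.772 to 1.15) for ASL. Scaling by TMM (trimmed mean of M values) multiplies all of these by 0.822, which takes OTC below 1 and leaves ASS1 the member past 2-fold. With cells thinned to 1000 UMIs the levels of days 0 and 7 were 1.16 and 5.51 for ASS1, 1.61 and 1.79 for CPS1, and 8.93 and 8.78 for OAT.

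The epithelial cells were not the same kinds of cells at each age, so the members were also followed within classes. Each epithelial cell went to the first class it met: enteroendocrine (CHGA and CHGB, at least 5 UMIs), goblet (MUC2, FCGBP and CLCA1, at least 5), crypt (OLFM4, at least 5), FABP6 (the ileal bile acid binding protein, at least 5) or absorptive (APOA4, APOC3, RBP2 and FABP2, at least 10). There were 181 crypt, 386 FABP6 and 613 absorptive cells on day 0, and 80, 129 and 407 on day 1. On day 3 the 87 epithelial cells were 31 enteroendocrine, 21 goblet, 22 crypt, 3 FABP6 and 0 absorptive cells and 10 others. The low day 3 levels of CPS1, OAT and ASS1 above were thus measured without absorptive cells, and the part of cell makeup in them was not tested. Within classes some levels were lower on day 3 than on day 0. CPS1 was 1.27 (0.866 to 1.79) in crypt cells, beside 2.69 on day 0. In goblet cells CPS1 was 0.0828 (0.01 to 0.299) and OAT 0.952 (0.603 to 1.43), beside 1.07 and 5.25 on day 0. ASS1 rested on 1 UMI in crypt, 1 in goblet and 8 in enteroendocrine cells of day 3, these 8 in 1 cell. Its levels there were 0.0396, 0.0414 and 0.46, beside 0.0292, 0.435 and 0.224 on day 0. In the crypt cells of day 3 OAT was 5.86 (4.95 to 6.88) and OTC 0.949 (0.608 to 1.41). In those of day 0 OAT and OTC were 7.49 (7.23 to 7.76) and 1.28 (1.17 to 1.39), and in those of day 1 5.69 and 0.613. On day 7 there were 82 FABP6 and 12 absorptive cells, and 92 of the 196 cells met no class rule, with a median mitochondrial share of 21.7% and a median of 2280.5 UMIs. The median mitochondrial share of all epithelial cells was 7.88% on day 0 and 13.6% on day 7, and its part in the comparison of these ages was not tested, while in FABP6 cells it was 10.4% and 8.79%. On day 14 the class FABP6 held 26 of the 27 cells.

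The enzymes split along the axis from crypt to absorptive cell. CPS1 and OTC were already present in crypt cells, where ASS1 was nearly absent. On day 0 the CPS1 level was 2.69 (2.54 to 2.86) in crypt cells, 2.65 (2.53 to 2.76) in FABP6 cells and 3.36 (3.25 to 3.47) in absorptive cells. OTC was 1.28 (1.17 to 1.39), 1.15 (1.07 to 1.22) and 1.04 (0.983 to 1.11) in the same classes. ASS1 was 0.0292 (0.0151 to 0.0511) in crypt cells, 0.652 (0.597 to 0.712) in FABP6 cells and 3.25 (3.14 to 3.36) in absorptive cells. The 12 ASS1 UMIs in 181 crypt cells were no more than the level of 0.044 (0.031 to 0.0607) in B cells of that library. The ratio of absorptive to crypt cells was at the least 63.6, the lower limit, for ASS1, and 4.17 (3.52 to 4.96) for ASL, 2.35 (2.27 to 2.45) for OAT, 1.60 (1.43 to 1.81) for ALDH18A1, 1.25 (1.16 to 1.33) for CPS1 and 0.817 (0.736 to 0.909) for OTC.

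The same split was seen in the library of day 1. CPS1 was 2.33 (2.12 to 2.56) in crypt and 4.498 (4.35 to 4.65) in absorptive cells, and ASS1 was 0.0861 (0.0492 to 0.14) and 9.55 (9.33 to 9.77). On day 1 the ratio of absorptive to crypt cells was at the least 68.2, the lower limit, for ASS1, whose crypt level was again no more than the 0.113 of B cells. The ratios were 5.43 (4.07 to 7.38) for ASL, 4.20 (3.95 to 4.48) for OAT, 2.20 (1.88 to 2.60) for ALDH18A1, 1.93 (1.75 to 2.14) for CPS1 and 1.31 (1.07 to 1.61) for OTC. These 6 members thus had 1 order of ratios in both libraries, with ASS1 first and OTC last, and ARG2 lay below OTC at 0.588 (0.268 to 1.34) and 0.353 (0.225 to 0.559). As counts, 3 of 7 members (OAT, ASS1 and ASL) were higher in absorptive than in crypt cells on day 0, against 14.8% of 11255 genes, and 0 were lower, against 15.8%. On day 1, 4 of 7 (ALDH18A1 with the same 3) were higher, against 21.7% of 10710 genes, and 1 (ARG2) was lower, against 19%.

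**Figure D2:**
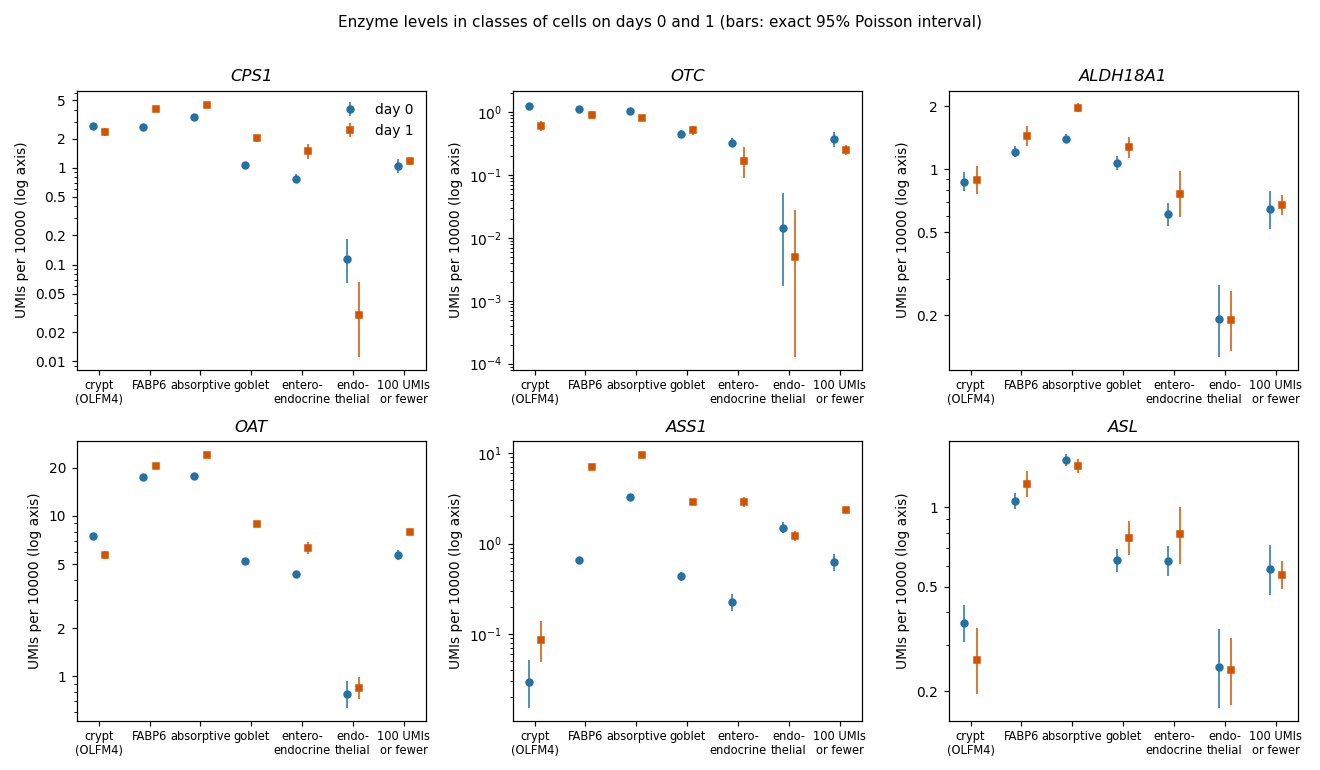
Level of 6 enzymes (UMIs per 10000, log axis) on days 0 and 1 in crypt, FABP6, absorptive, goblet, enteroendocrine and endothelial cells and in barcodes with 100 UMIs or fewer, with exact 95% Poisson intervals. CPS1 and OTC in crypt cells lie within 2-fold of absorptive cells on both days, whereas ASS1 is lowest in crypt cells at 0.0292 and 0.0861 and highest in absorptive cells at 3.25 and 9.55.

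The share of ASS1 among the UMIs of ASS1 and CPS1 together does not depend on the size of the library. It was 1.07% (0.556 to 1.87, Clopper-Pearson) in crypt cells of day 0 and 3.56% (2.05 to 5.72) in those of day 1. In FABP6 cells of days 0, 1, 7 and 14 it was 19.8% (18.2 to 21.4), 63.8% (61.9 to 65.7), 71.0% (68.3 to 73.7) and 92.9% (89.7 to 95.3). Absorptive cells had 49.2% (48.0 to 50.4) and 68.0% (67.1 to 68.9) on days 0 and 1, and the 12 of day 7 had 78.1% (72.1 to 83.4). Crypt cells thus stood far below the barcodes with 100 UMIs or fewer, which had 37.3% (31.2 to 43.7) on day 0 and 66.7% (64.4 to 69.0) on day 1. Goblet cells had 28.8% and 58.6% and enteroendocrine cells 22.5% and 65.9% on days 0 and 1. In these secretory classes 3 cells held 194 of the 240 ASS1 UMIs of the 98 enteroendocrine cells of day 1, and 3 cells held 280 of the 701 of the 120 goblet cells.

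**Figure D3:**
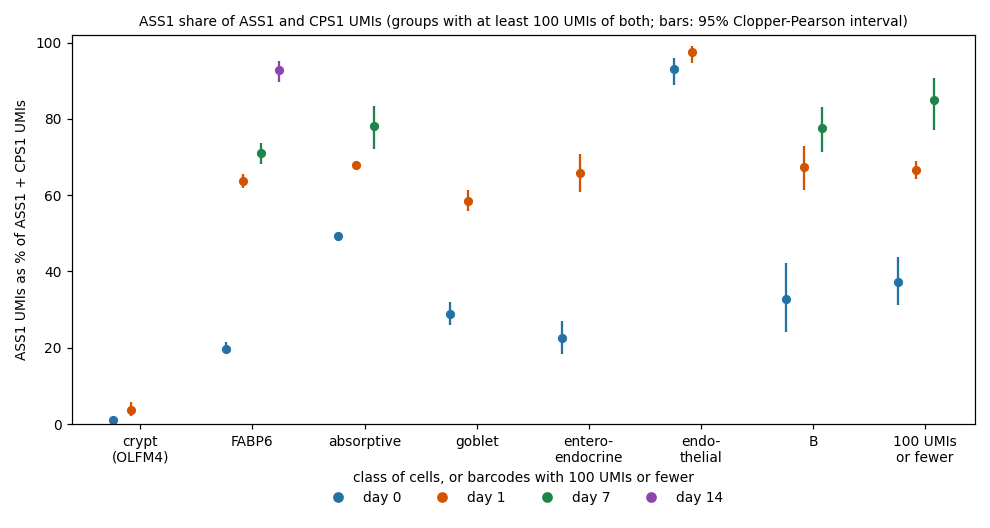
ASS1 UMIs as a percent of ASS1 and CPS1 UMIs by class of cells and age, in groups with at least 100 UMIs of both genes, with 95% Clopper-Pearson intervals. Crypt cells lie under 6% on both days, FABP6 cells go from 19.8% on day 0 to 92.9% on day 14, and endothelial cells lie above 90%.

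In absorptive and FABP6 cells ASS1 stood higher at the later ages. It was also higher on day 1 in goblet cells, at 0.435 on day 0 and 2.86 on day 1, and in enteroendocrine cells, at 0.224 and 2.87. On day 1, 3 cells of each of these secretory classes held 280 of 701 and 194 of 240 of its UMIs. In absorptive cells it was 3.25 on day 0 and 9.55 on day 1, a ratio of 2.94 (2.82 to 3.06), and 16.7 (14.3 to 19.4) in the 12 cells of day 7. Once cells were thinned to 1000 UMIs, an ASS1 UMI was found in 25.3% of absorptive cells on day 0 and in 47.4% on day 1. FABP6 cells showed a wider course than absorptive cells, with 0.652 (0.597 to 0.712), 7.12 (6.79 to 7.48) and 11.06 (10.3 to 11.9) on days 0, 1 and 7 and 19.3 (17.3 to 21.5) in the 26 cells of day 14. The ratio to day 0 was 10.9 (9.87 to 12.1) on day 1 and 17.0 (15.1 to 19.0) on day 7. As means over cells the levels of days 0, 1 and 7 were 0.924, 6.10 and 9.81, which are smaller differences. FABP6 and absorptive cells therefore differed 4.98-fold (4.53 at the lower limit) in ASS1 on day 0 and 1.34-fold (1.27 at the lower limit) on day 1. Their OAT levels were alike on day 0, at 17.5 and 17.6.

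Beside ASS1 and ARG2, the members with enough UMIs stayed within 2-fold between ages in absorptive cells of days 0 and 1 and in FABP6 cells of days 0, 1 and 7. From day 0 to day 1, 2 of 8 members in absorptive cells were higher (ASS1 and ARG2), against 8.4% of 11287 genes, and 0 were lower, against 4.78%. In FABP6 cells 2 of 7 were higher (again ASS1 and ARG2), against 10.5% of 10649 genes, and 0 were lower, against 2.86%. In FABP6 cells of day 7 against day 0, 1 of 7 was higher (ASS1), against 18.2% of 10322 genes, and 1 was lower (ARG2, at 0.443 with an interval of 0.0108 to 2.72, on 1 and 24 UMIs), against 11.7%. CPS1 was 1.53-fold (1.41 to 1.65) higher on day 1 and 1.70-fold (1.51 to 1.92) higher on day 7 in FABP6 cells. In crypt cells of day 1 against day 0, 2 of 7 were higher (ASS1 on 16 and 12 UMIs, and ARG2), against 6.39% of 10055 genes, with ASS1 below its level in B cells of both libraries, and 1 was lower (OTC, 0.48-fold, 0.389 to 0.589), against 4.71%.

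The 26 FABP6 cells of day 14 had another balance of enzymes than the 82 of day 7. ASS1 was 1.75-fold (1.53 at the lower limit) higher. OAT was 5.81-fold lower, with 20.5 on day 7 and 3.54 on day 14, CPS1 was 3.04-fold lower, with 4.51 and 1.48, and OTC was at least 6.25-fold lower, with 77 UMIs against 0. ALDH18A1 was 1.72 (1.43 to 2.05) and 1.31 (0.832 to 1.97), and ASL was 1.10 and 1.08, so the intervals of these members overlapped. The group of day 14 is under 50 cells, and its library was 91.7% B cells.

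ASS1 was also found in the vessel wall. Among the cells that met none of the 4 lineage rules, endothelial cells (PECAM1, CDH5 and VWF, at least 3 UMIs together) numbered 234 on day 0, 256 on day 1 and 26 on day 3, and their 4 endothelial markers summed to 29.3, 32.9 and 35.3 per 10000. These markers are the genes of the rule with KDR, so the rule itself set part of that sum. Endothelial cells are known to recycle citrulline to arginine for nitric oxide. Their ASS1 level was 1.51 (1.31 to 1.72), 1.21 (1.06 to 1.37) and 0.80 (0.438 to 1.34) at these ages. Stromal cells (COL1A1, COL3A1 and DCN, at least 5) had 0.0927 on day 0, 0.097 on day 1 and 0 on day 3. Endothelial cells were thus 16.2-fold (8.65 at the lower limit) above stromal cells on day 0 and 12.5-fold (7.72 at the lower limit) on day 1. The share of ASS1 in the UMIs of ASS1 and CPS1 was 93.0% (88.9 to 95.9) and 97.6% (94.8 to 99.1), above the 37.3% and 66.7% of the barcodes with 100 UMIs or fewer. ASL was higher in endothelial cells as well, at 0.248 (0.173 to 0.346) and 0.241 (0.178 to 0.319) against 0.0835 and 0.0323 in stromal cells. CPS1 and OTC were not, with 16 and 2 UMIs in endothelial cells of day 0, against 14 and 1 in stromal cells. Outside cells ASL was 0.582 and 0.555 on days 0 and 1, above its endothelial levels. ASS1 outside cells was 0.623 and 2.35, so its endothelial level lay above this on day 0 and below it on day 1.

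ARG1 (1:32006035-32028983), the cytosolic arginase of the liver urea cycle and of some myeloid cells, was found in the epithelium as 2 UMIs in 2601 cells on day 0, 14 in 920 cells on day 1 and 0 on days 3, 7 and 14. In myeloid cells the course was abrupt. There were 0 UMIs in 244 cells on day 0 (which allows a level of up to 0.0174, the floor of 3 counts over the group), 7824 UMIs in 769 cells on day 1, 28 in 177 cells on day 3, 6 in 18 cells on day 7, 118 in 74 cells on day 14 and 0 in 5 cells on day 21. The levels of days 1, 3 and 14 were 13.5 (13.2 to 13.8), 0.17 (0.113 to 0.246) and 3.40 (2.81 to 4.07). With cells of several lineages counted in each, the levels of days 1 and 14 were 8.07 and 1.99. In the lineages as defined, myeloid cells of day 1 were at least 777-fold above those of day 0, and those of day 14 were 19.9-fold (13.1 at the lower limit) above those of day 3. The 28 UMIs of day 3 lay in 5 cells, and 3 of these held 26. As means over cells the levels of days 3 and 14 were 0.485 and 3.51, which is a smaller difference. The level outside cells was 0.819 on day 1, and at most 0.0325 at each other age.

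The makeup of the myeloid cells moved with ARG1, and its part in the difference between ages was not tested. The summed level of 4 neutrophil markers (S100A8, S100A12, CSF3R and CXCR2, all with UMIs from day 0 to day 14) in myeloid cells was 0.662, 45.3, 1.25, 8.90 and 16.4 on days 0, 1, 3, 7 and 14. After these values were seen, the myeloid cells were divided by S100A8 and S100A12, the calprotectin-family genes of neutrophils and monocytes. On day 1, 297 cells with at least 5 UMIs of the pair held 7551 of the 7824 ARG1 UMIs, at a level of 40.9 (40.0 to 41.9), and 80.8% (75.9 to 85.1) of them had an ARG1 UMI. The other 472 had a level of 0.694 (0.614 to 0.781) and an ARG1 UMI in 5.30%, at median depths of 5062 and 8292 UMIs. Only 11 cells lay between 4 and 6 UMIs of the pair. On day 0, 2 of the 244 myeloid cells met this division, and on day 3, 5 of 177. On day 14 the 19 cells that met it had a level of 6.86 (5.27 to 8.78) and the 55 others 2.15 (1.62 to 2.80).

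**Figure D4:**
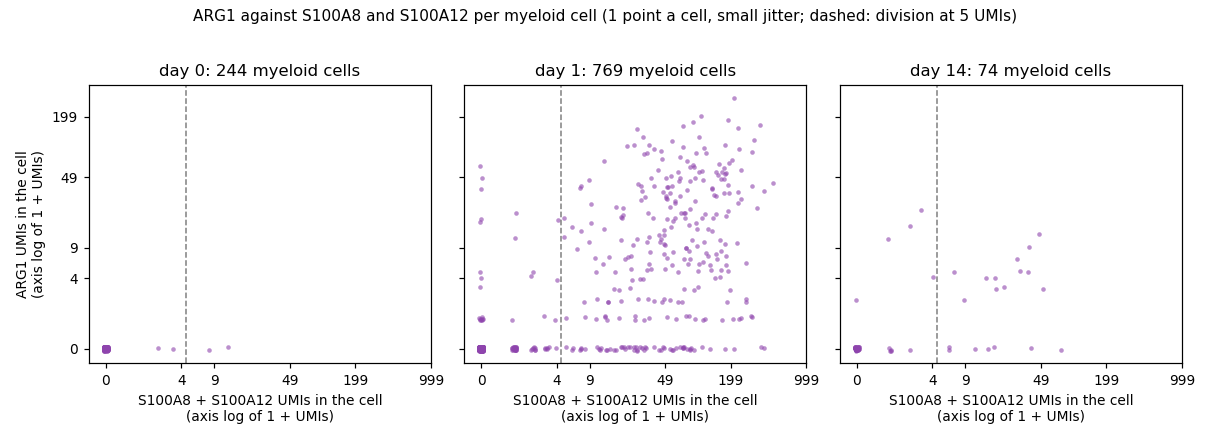
ARG1 UMIs against S100A8 and S100A12 UMIs in each myeloid cell of days 0, 1 and 14, both on log axes of 1 + UMIs with a small jitter, with a dashed line at 5 UMIs. On day 1 the 297 cells at or to the right of the line hold 7551 of 7824 ARG1 UMIs and 25 cells to the left hold 273, and on day 0 2 cells lie to the right and no cell has an ARG1 UMI.

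ARG1 was concentrated in few cells. On day 1, 261 cells of all lineages with at least 5 ARG1 UMIs held 96.9% of the 10290 ARG1 UMIs in cells, and 198 of them were myeloid, 37 met no lineage rule, 19 met more than 1, 5 were T and 2 were B cells. The level of 0.539 in T cells of day 1 rested on 3 cells, which held 385 of 416 UMIs. Of ARG1 in the whole series, 10290 of 10620 UMIs in cells came from the library of day 1, so the lineage of ARG1 is known mainly from that library.

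ARG2 (7:91343987-91385911), the mitochondrial arginase, which overlaps a pseudogene in the annotation, was low in the epithelium. On days 0, 1, 3 and 7 its level was 0.0496 (0.0425 to 0.0576), 0.0974 (0.0826 to 0.114), 0.0659 (0.0214 to 0.154) and 0.0591 (0.0238 to 0.122), with 0 UMIs in the 27 cells of day 14. The ratio of day 1 to day 0 was 1.96 (1.57 to 2.46). Within classes it was 6.44-fold (3.26 to 13.6) higher on day 1 in crypt cells, on 35 and 12 UMIs, and 3.87-fold (2.22 to 7.04) in absorptive cells, on 51 and 18. Goblet cells, which had the highest level of the named classes on day 0, did not share this. Their level was 0.117 (0.0914 to 0.147) on day 0 and 0.114 (0.0759 to 0.165) on day 1. ARG2 was 0.188 (0.131 to 0.262) in crypt and 0.0665 (0.0495 to 0.0874) in absorptive cells of day 1. The level outside cells also differed between these libraries, with 0.0137 on day 0 and 0.102 on day 1, and its part in these differences was not tested.

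In myeloid cells ARG2 followed ARG1, with 1 UMI on day 0, 239 on day 1 at a level of 0.414 (0.363 to 0.469), 0.0425 on day 3 and 0.23 (0.0994 to 0.454) on day 14. The ratio of day 1 to day 0 was 71.2 (12.7 to 2826). It was smaller with cells of several lineages counted in each, where the levels were 0.268 on day 1 and 0.0454 on day 0, and with thinned cells they were 0.663 and 0.041. On day 1 the level was 1.20 (1.05 to 1.37) in the 297 cells with S100A8 and S100A12 and 0.0457 (0.0271 to 0.0723) in the 472 others. Over the set, 3 of 6 members (ASS1, ARG1 and ARG2) were higher in myeloid cells of day 1 than of day 0, against 9.24% of 10303 genes, and 0 were lower, against 8.04%. For ASS1 this was 0.0934 against 0.0348, on 54 and 6 UMIs, beside 2.35 and 0.623 outside cells.

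B cells were numerous at each age. On days 0 and 1 their levels of CPS1, OTC, ALDH18A1, OAT, ASS1 and ASL lay below those outside cells. Of 7 members with enough UMIs, 5 (CPS1, OAT, ASS1, ASL and ARG2) were lower on day 21 than on day 0, against 16% of 12585 genes, and 1 was higher, against 27.5%. The member called higher was ARG1, counted for 27 UMIs against 0, and against the floor of 3 counts it was at least 1.24-fold higher, so a 2-fold difference was not shown. The 6 calls became 3 lower ones, of 3 members left, with cells thinned to 1000 UMIs, and 1 lower one (OAT), of 2 members left, with at least 100 UMIs. The shares of all genes above were taken without thinning and with at least 20 UMIs, so they do not apply to these counts. CPS1 was at least 184-fold lower and ASS1, with 1 UMI on day 21 and 37 on day 0, had a ratio of 0.00372 (9.17e-05 to 0.0221). Outside cells ASS1 was 0.623 on day 0 and 0.0113 on day 21, and its part and that of CPS1 in these levels was not tested.

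OAT and ALDH18A1 were still found in B cells of day 21, at levels close to those outside cells. B cells made up 70.5% of the cells on day 3 and 94.2% on day 21, and the source of the RNA outside cells was not tested. OAT in B cells was 0.852 (0.791 to 0.917), 0.873 (0.827 to 0.921), 0.575 (0.554 to 0.597), 0.541 (0.521 to 0.561), 0.393 (0.379 to 0.406) and 0.30 (0.287 to 0.314) from day 0 to day 21. From day 3 on, each value lay beside an OAT level outside cells of 0.566, 0.694, 0.408 and 0.295. ALDH18A1 was 0.12, 0.12, 0.127, 0.101, 0.0957 and 0.0744 (0.0677 to 0.0816), beside 0.176, 0.12, 0.0893 and 0.0643 outside cells from day 3 on. This was a ratio of 0.619 (0.498 to 0.775) from day 21 to day 0, which TMM scaling multiplies by 0.73, so that it too passes 2-fold. T cells had more ALDH18A1 than B cells at each age, between 0.178 and 0.234. In T cells of day 21 it was 0.215 (0.115 to 0.368).

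Over all cells of a library, 8 of 9 members were lower on day 21 than on day 0, against 36.5% of 15298 genes, and 1 (ARG1, 28 against 4 UMIs) was higher, against 19.6%. The counts went from 10797 to 0 UMIs for CPS1, from 4047 to 0 for OTC and from 5492 to 2 for ASS1, and were at least 3034-fold lower per 10000 for CPS1 and at least 1137-fold for OTC. Epithelial cells made up 24.0% of the cells on day 0 and 0.00724% on day 21, so in the counts over all cells fewer epithelial cells and less RNA per cell cannot be told apart.

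A wider list of 45 genes of arginine, proline, glutamine and polyamine metabolism and of amino acid transport was found whole. In epithelial against B cells 25 of 44 genes with enough UMIs were higher, against 35.5% of all genes compared, and 4 were lower, against 17.6%, with a median log2 difference of 1.16 over the list and 0.33 over all genes compared. The 5 with the highest ratio were SLC7A9 (111-fold) and SLC3A1 (71.0-fold), the subunits of the apical carrier of cystine and dibasic amino acids, SLC6A19 (75.1-fold), the apical carrier of neutral amino acids, AGMAT (44.0-fold), an agmatinase, and GPT2 (38.3-fold), the mitochondrial alanine aminotransferase. Those higher in B cells included ALDH4A1 (8.03-fold), SLC25A12 (2.13-fold) and SLC7A6 (2.01-fold).

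In epithelial cells of day 7 against day 0, 10 of 43 genes of the wider list were higher, against 18.1% of all genes compared, and 8 lower, against 15%, with a median log2 difference of -0.04 over the list and 0.20 over all genes. Among those with at least 100 UMIs in both groups together, the 5 highest ratios were GPT2 6.96-fold, SLC3A1 6.38-fold, GPT 3.03-fold, SLC7A9 2.84-fold and SLC6A19 2.62-fold. On the lower side stood PYCR1, a proline-forming reductase, with 2 of 1184823 epithelial UMIs on day 7 and 588 of 34666149 on day 0. It was followed by SRM (3.49-fold), spermidine synthase, GATM (3.43-fold), which opens creatine synthesis from arginine, SLC38A2 (3.14-fold) and SLC7A6 (2.20-fold). Along the axis from crypt to absorptive cell on day 0, the carriers SLC6A19 and SLC7A7 lay on the side of ASS1, with ratios of 33.9 and 7.09, whereas SLC38A5, PYCR1 and SRM were 5.39-fold, 3.33-fold and 3.15-fold higher in crypt cells. From day 0 to day 1, NOS2, the inducible nitric oxide synthase that uses arginine, was 10.7-fold higher in epithelial cells, with 0.0159 and 0.171, and it was 0.169 on day 7. Its 0.0264 on day 3 lay under 0.0396, the level of 3 counts over those 87 cells, so no course through day 3 can be read.

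In B cells of day 21 against day 0, 5 of 37 genes of the wider list were higher, against 27.5% of all genes compared, and 7 lower, against 16%. SMS, spermine synthase, was 3.96-fold higher, and SLC25A12 (2.41-fold) and SLC1A5 (2.15-fold) were among the others. ODC1, which makes putrescine from ornithine, was 2.47-fold lower, with 3.42, 3.24, 1.94, 1.33, 1.44 and 1.39 from day 0 to day 21. SLC7A7 (4.29-fold), GLUL (3.58-fold) and SLC38A2 (2.55-fold) were also lower. Over all cells of day 21 against day 0, 4 of 44 were higher, against 19.6%, and 21 lower, against 36.5%.

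The pattern of each member except NAGS, which had too few UMIs, was compared over 20 groups of age and lineage. It was set against that of 13825 genes, as Pearson's r of log2 levels. These groups share libraries, and the epithelial groups set most of the range, so the values describe lineage more than age. The nearest genes were HNF4G (0.993) for CPS1, GSTA1 (0.997) for OTC, PGRMC1 (0.967) for ALDH18A1, MPZL2 (0.988) for OAT, TRIM31 (0.987) for ASS1 and ANXA4 (0.97) for ASL. For ARG1 the nearest were ADGRE1 (0.965), ACOD1 (0.953) and CLEC4E (0.953), all genes known from myeloid cells, and for ARG2 they were ACSL1 (0.857), SAA3 (0.842) and PDXK (0.828). CPS1 and OTC had 0.974 with each other, and CPS1 and ARG1 had -0.21.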

How the data were processed

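The deposited matrices held UMI counts, not normalized and for all barcodes, which the authors made with Cell Ranger (version 3.1.0) and STAR against susScr11, per the submitters' processing notes. The labels name a third-version kit and the paper a second-version one. Positions came from the Sscrofa11.1 reference table, in which all 20648 symbols were found. The members and gene lists were chosen with earlier results of these data known. Barcodes with at least 1000 UMIs and 500 genes were kept, from 6794880 per library and 77391932 to 100348769 UMIs. No doublet caller was run, and cells that met more than 1 lineage rule were left out. UMIs were pooled per group and divided by the total. Intervals at 95% are exact Poisson (levels), conditional binomial (ratios) and Clopper-Pearson (shares), and with a group at 0 the bound uses 3 counts over the group. Pooled folds were tested on simulated data. Named genes were all members, the 5 genes of the wider list with the largest fold in each direction with at least 100 UMIs, and the 3 genes nearest in pattern. A gene that met this rule is not reported here. Genes of the wider list named for crypt cells, for day 1 or beyond this rule were chosen after their values were seen. Alternatives changed the cell minimum, the mitochondrial share (under 25%), doublets, thresholds, depth, low counts, scaling and shared barcodes. Python 3.11.15, scipy 1.17.1, R 4.3.3 and edgeR 4.0.16 (TMM only) were used.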

Additional observations from a re-analysis of the deposited data

Results flagged for a closer look

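ASS1 had ratios of day 7 to day 0 on opposite sides of 1 in 2 lineages of the same libraries. Its level on day 7 was 6.69-fold that of day 0 in epithelial cells and 0.468-fold in T cells. The value in T cells rested on 41 UMIs on day 0 and 7 on day 7, at levels of 0.0614 (0.0441 to 0.0834) and 0.0288 (0.0116 to 0.0593). These intervals overlapped, so a lower level in T cells was not shown beyond counting error. The level in barcodes with 100 UMIs or fewer was 0.623 on day 0 and 0.288 on day 7. With 1 library per age the difference was not tested.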

How the results depend on the processing

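The counts of members past 2-fold stayed within 1.5 times of those reported under most alternatives. The exceptions lay in epithelial cells of day 7 against day 0, where the count went from 1 to 2 with a mean over cells (NAGS), with no minimum of UMIs (ARG1) and in FABP6 cells alone (ARG2; chosen after seeing the data, as were leaving out day 3 and leaving out epithelial cells), and in B cells of day 21 against day 0, where it went from 6 to 3 with cells thinned to 1000 UMIs and to 1, of 2 members left, with at least 100 UMIs. No share of all genes is set beside these counts, which show only how the calls moved with the setting. No member counted as past 2-fold turned to the other side in these settings, and NAGS in B cells, with 1 UMI on day 21 and 0 on day 0, turned when cells of several lineages were counted in each. TMM scaling moved the log2 ratio of all genes by -0.16 (epithelial against B cells), -0.28 (epithelial, day 7 against day 0) and -0.45 (B cells, day 21 against day 0). Of 180 levels, thinning moved 74 out of their intervals, counting cells of several lineages in each 64 and a mean over cells 45. Counting cells in each moved most of all OAT in myeloid cells of day 0, from 0.638 to 7.86. ARG1 in T cells of day 1 went from 0.539 to 0.288 with doubled thresholds, and OTC in epithelial cells of day 7 from 0.903 to 0.408 when thinned. Each age is 1 library, groups under 50 cells are descriptions, and NAGS was too low to compare between ages. Between ages no paired analysis was possible because each age has 1 library. Epithelial and B cells came from the same libraries, but their folds compared levels averaged over days and not pairs within libraries.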
